A study of Homo sapiens with 24 samples.

Results

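The comparison described here is between stable HCC1954 cells carrying a short hairpin RNA (shRNA) against TFAP2C and stable HCC1954 cells carrying a negative control shRNA. HCC1954 is an established human breast carcinoma line with amplified HER2, and both shRNA cassettes were delivered by lentivirus and kept in clones, per the labels. The members are all genes with at least 1 RefSeq entry whose test was completed in the authors' deposited table for this pair, which gave 9734 of the 27431 gene symbols in that table. A gene's level is the FPKM (fragments per kilobase of transcript, scaled to the library's mapped fragments) summed over its tested entries. The control group is HCC1954 with the non-targeting shRNA and the knockdown group is HCC1954 with the TFAP2C shRNA, each with 3 samples at passage 5 to 10. The labels give no number of clones and no time since infection, and do not say that the 3 samples of a group were grown apart. By the same labels, the identity of the lines was not checked by the submitters. The whole series has 24 samples in 8 groups from 3 lines, and the other groups received transient small interfering RNA (siRNA) for 72 to 96 h.

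TFAP2C encodes AP-2gamma, a transcription factor that binds GC-rich sites as a dimer with itself or with other AP-2 proteins. It is expressed in early epidermis, trophoblast and mammary epithelium. In breast cancer cells it is known for its sites near HER2 (ERBB2), the oestrogen receptor gene and keratin genes, where it acts with FOXA1 and GATA3. An shRNA is processed to a short guide strand that directs cleavage of the messenger RNA.

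The deposited table gives 1 pooled FPKM for the 3 samples of a group. No value below therefore has a replicate spread of its own, the sequencing depth is unknown, and the test behind each call is the authors'. The words rose, fell and changed, and the word called, are kept for genes whose leading entry (the one with the most FPKM) had a q-value under 0.05 in the authors' deposited table and whose summed FPKM moved the same way. If the 3 samples of a group were not separate cultures, these q-values measure only technical spread. A test was completed almost only for entries with at least 4.75 FPKM in one of the groups. A gene near 0 in a group was thus tested only because it was high in the other, and counts over tested members of a list are not counts over the list. Of the tested genes 7387 lay above that level in both groups, and of these 2568 rose and 2783 fell.

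Of the 9734 tested genes 3519 rose (36.2%) and 3793 fell (39%) with the TFAP2C shRNA, 75.1% in all. Counts of called genes in the lists below are to be read beside these shares. With TFAP2C siRNA in HCC1954, 251 of 11078 tested genes rose (2.27%) and 105 fell (0.948%), 3.21% in all. The columns of the HCC1954 siRNA table name no line, and the table is assigned to HCC1954 from the name under which it was deposited. The log2 ratios of knockdown over control had a median of −0.04 and quartiles of −0.76 and 0.67 with shRNA, and a median of −0.01 and quartiles of −0.16 and 0.15 with siRNA. A difference of at least 2-fold was seen in 3601 genes with shRNA, of which 1544 rose and 1837 fell. A difference of at least 16-fold was seen in 689, of which 229 rose and 342 fell. At 0 FPKM were 72 tested genes in the control group and 113 in the knockdown group. A listed 0 can be a failed estimate in tables of this kind, so such genes are said to be listed at 0 and no fold is given for them.

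**Figure D1:**
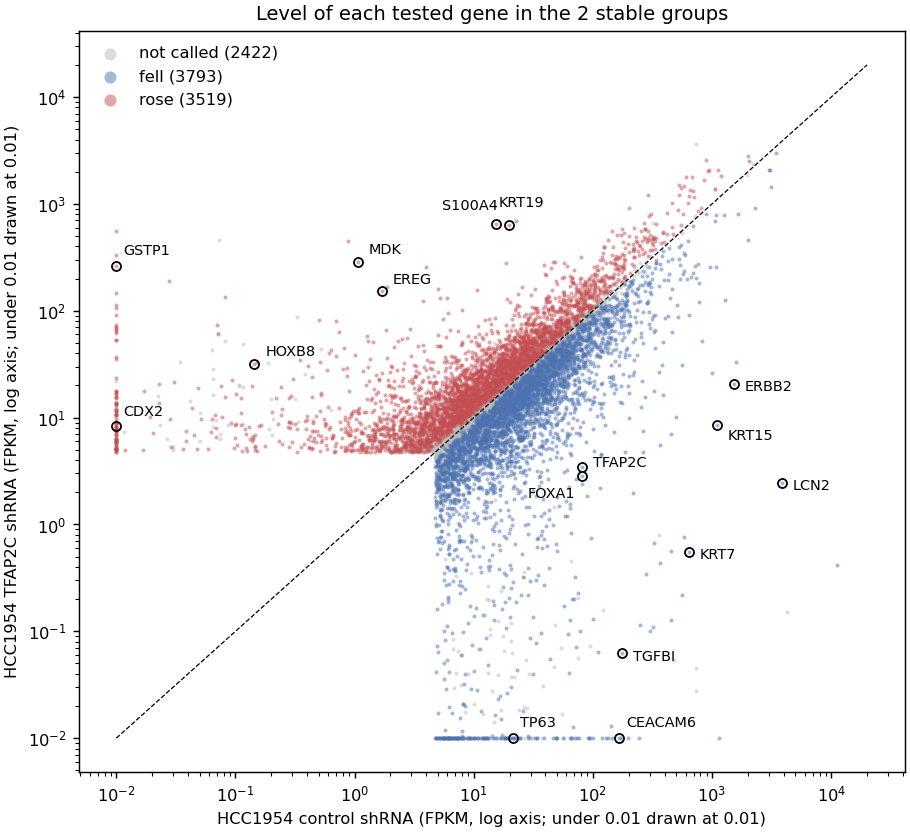
FPKM of each of the 9734 tested genes in the control shRNA group (x) and the TFAP2C shRNA group (y), both on log axes with values under 0.01 drawn at 0.01; 3519 genes rose, 3793 fell, and the dashed line marks equal levels. The empty lower left corner is the set of genes below the level at which a test was made, and TFAP2C lies among the genes that fell, at 81.04 and 3.46 FPKM.

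The targeted gene was lower under the shRNA. TFAP2C (hg19 chr20:55204358-55214338) had 81.04 FPKM in the control group and 3.46 FPKM in the knockdown group, a log2 ratio of −4.55 (SE 0.34, from the deposited statistic). With siRNA it had 92.4 and 22.0 FPKM. TFAP2A, which encodes AP-2alpha and shares the binding site, fell from 21.7 to 2.29 FPKM with shRNA. It was at 19.8 and 25.8 FPKM with siRNA and was not called there. CITED4, a transcriptional co-activator of AP-2 proteins, fell from 27.5 to 2.93 FPKM, and WWOX, a binding partner of AP-2gamma, fell from 13.9 to 2.12 FPKM. Of 13 AP-2 genes and cofactors 9 were tested, 1 rose and 4 fell, with a median log2 ratio of −1.11. Of those 9 tested genes 0 rose and 1 fell with siRNA.

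The 2 stable groups differed in far more than the targeted gene, and the values that bear on what the groups are come first. Over 15065 gene symbols, with log2(FPKM + 1), Spearman's rho across genes was 0.784 between the stable groups. It was 0.950 between the 2 HCC1954 siRNA groups and 0.971 between the 2 groups of SKBR3, another HER2-positive breast carcinoma line. The control shRNA group correlated with the HCC1954 non-targeting siRNA group at 0.818 and with the SKBR3 non-targeting siRNA group at 0.803. The TFAP2C shRNA group correlated with them at 0.659 and 0.750. The 2 non-targeting siRNA groups correlated with each other at 0.723. The knockdown group was therefore less like the HCC1954 siRNA control than SKBR3 was. These are correlations across genes, which are not independent, and they are given as descriptions. The shRNA and siRNA comparisons were also normalized separately, which bears on every level set side by side between them. RNA18SN5, an 18S ribosomal RNA, was at 3051 and 2066 FPKM in the stable groups. It was at 194 FPKM in the HCC1954 siRNA control and at 203 FPKM in that of SKBR3. The part of such differences in the correlations was not tested.

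A gene was counted as on at 5 FPKM or more and as off under 0.5 FPKM, with all its entries summed. Of 9326 genes on in the control shRNA group 341 were off in the knockdown group, and of these 244 (71.6%) were on in the HCC1954 siRNA control and 14 were off there. Of 9335 genes on in the knockdown group 271 were off in the control shRNA group, and of these 217 (80.1%) were also off in the HCC1954 siRNA control and 19 were on there. In SKBR3 with non-targeting siRNA 159 of the 271 were off. Between the HCC1954 siRNA groups 74 genes were on in the control and off in the knockdown, and 80 were the reverse. The 2 HCC1954 controls differed from each other too: 28 genes were on in the control shRNA group and off in the siRNA control, and 333 of 9458 were on in the siRNA control and off in the control shRNA group. Of the 341 and 271 genes that set the stable groups apart, 244 and 217 were on or off in the siRNA control as in the control shRNA group. The shRNA and the clone were changed together, so an effect of TFAP2C loss and a difference between the cell populations cannot be told apart in these groups.

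The HOX genes, 4 clusters whose expression marks position along the body axis and is kept through many cell divisions, differed in pattern between the stable groups. In the HOXB cluster on chromosome 17, 8 of 10 genes were tested, 7 rose and 1 fell. The median log2 ratio of 7.53 counts the listed 0 of HOXB5, HOXB6 and HOXB13 in the control. HOXB4, HOXB5, HOXB6, HOXB8, HOXB9 and HOXB13 were under the test level in the control, so only a rise could be called for them. HOXB2 was under it in the knockdown group, so only a fall could be called. HOXB2 fell from 34.3 to 0.733 FPKM. HOXB4 rose from 0.0639 to 9.77 FPKM and HOXB8 from 0.144 to 32.0 FPKM. HOXB5, HOXB6 and HOXB13 were listed at 0 in the control group and rose to 10.5, 15.4 and 7.73 FPKM. HOXB7, named after its values were seen, was on in both groups and rose from 22.9 to 53.7 FPKM. So HOXB2 was on and HOXB4, HOXB5, HOXB6 and HOXB8 were near 0 in the control, and the reverse held for these genes in the knockdown group. HOXB2 had 67.0 and 61.4 FPKM in the HCC1954 siRNA groups, and HOXB8 had 0.0785 and 0.184 FPKM there.

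In the HOXA cluster on chromosome 7, 6 of 11 genes were tested, 5 rose and 1 fell, with a median log2 ratio of 1.91. HOXA7 rose from 0.137 to 19.7 FPKM, HOXA5 from 1.16 to 7.25 FPKM, HOXA11 from 0.934 to 7.45 FPKM and HOXA9 from 39.2 to 88.0 FPKM. HOXA3 fell from 5.99 to 1.85 FPKM. In the HOXC cluster on chromosome 12 the direction was mostly the other way: 4 of 9 genes were tested, 1 rose and 3 fell. HOXC11 fell from 13.8 to 0.407 FPKM, HOXC10 from 21.8 to 3.003 FPKM and HOXC13 from 22.0 to 3.84 FPKM, while HOXC9 rose from 3.75 to 8.49 FPKM. HOXA5, HOXA7, HOXA11 and HOXC9 were likewise under the test level in the control. HOXA3, HOXC10, HOXC11 and HOXC13 were under it in the knockdown group. No HOXD gene was tested, and the summed level of the 9 genes was 0.792 FPKM in the control and 3.62 FPKM in the knockdown group. Among the HOX genes tested with shRNA, HOXB9 alone was called with siRNA in HCC1954. Some HOX transcripts overlap each other in the annotation, and HOXA5 and HOXA7, HOXB2 and HOXB4, and HOXB5 and HOXB6 share a deposited locus.

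**Figure D2:**
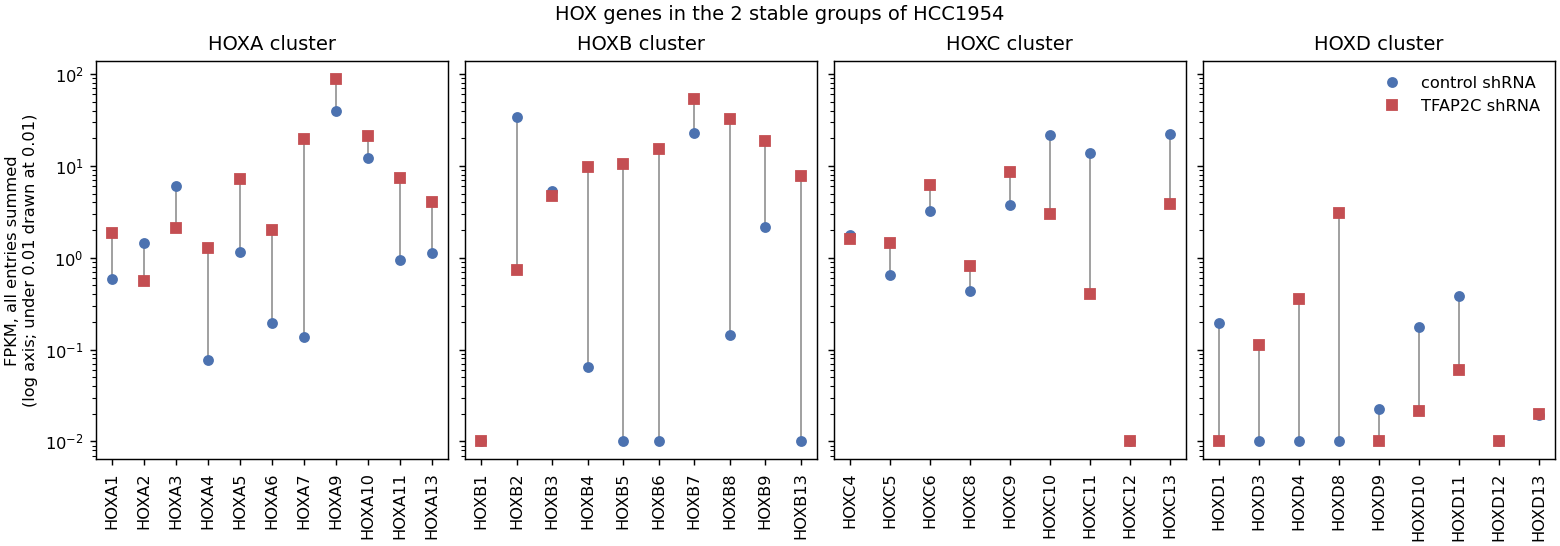
Level of each HOX gene in the control shRNA group (circles) and the TFAP2C shRNA group (squares), as FPKM summed over all entries on a log axis, with values under 0.01 drawn at 0.01, and the genes of each cluster in numerical order. HOXB4 to HOXB8 lie higher in the knockdown group, HOXB2 lies lower there, and HOXC10, HOXC11 and HOXC13 lie lower.

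Epithelial transcription factors were mostly lower in the knockdown group. Of 23 listed genes 17 were tested, 3 rose and 13 fell, with a median log2 ratio of −1.90, beside −0.04 over all tested genes. FOXA1, a pioneer factor of luminal breast cells, fell from 80.4 to 2.84 FPKM (log2 ratio −4.82, SE 0.35). GATA3, its luminal partner, fell from 7.02 to 0.366 FPKM, and GRHL1, a grainyhead factor of surface epithelia, from 43.8 to 4.10 FPKM. ELF3, an epithelial ETS factor, fell from 200.3 to 24.4 FPKM. TP63, the basal factor p63, fell from 21.2 FPKM and was listed at 0 in the knockdown group. Its relative TP73 rose from 0.280 to 5.28 FPKM. ESRP1, a splicing regulator of epithelial exons, fell from 144 to 65.1 FPKM. Of those 17 tested genes 1 rose and 0 fell with siRNA, where FOXA1 was at 66.8 and 65.2 FPKM.

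Of 13 transcription factors that drive epithelial-mesenchymal transition 4 were tested, 2 rose and 0 fell. SOX4 rose from 57.6 to 282.5 FPKM and FOXC1 from 12.9 to 30.6 FPKM. Of the 13 genes 5 were under 1 FPKM in the control and 9 in the knockdown group. Without a completed test, TWIST2 was at 2.48 FPKM and a listed 0. FOXQ1 was likewise at 3.47 and 1.15 FPKM, and ZEB1 at 0.0281 and 0.930 FPKM. Of 33 lineage factors of other tissues 5 were tested, 2 rose and 3 fell. CDX2, the homeobox factor of intestinal epithelium, was listed at 0 in the control and rose to 8.28 FPKM. It was at 0.0186 FPKM or listed at 0 in the siRNA groups of HCC1954. LHX2, a LIM-homeobox factor, rose from 1.44 to 6.14 FPKM. LHX1 fell from 5.601 to 0.353 FPKM and GATA6 from 6.404 to 5.14 FPKM.

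Breast epithelial markers were checked in both groups. Of 18 basal markers 14 were tested, 0 rose and 12 fell, with a median log2 ratio of −4.42. KRT5, KRT14 and KRT17, keratins of basal cells, fell from 281, 18.3 and 320 FPKM to 0.342, 0.188 and 0.109 FPKM. KRT6A and KRT6B fell from 49.2 and 72.7 FPKM to 0.651 and 0.0717 FPKM. CDH3, the gene of P-cadherin, fell less, from 96.1 to 50.1 FPKM. The count was the opposite with siRNA in HCC1954, where 6 of these 14 genes rose and 0 fell.

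Of 24 luminal markers 17 were tested, 3 rose and 11 fell, with a median log2 ratio of −2.23. KRT19, a keratin of luminal cells, rose from 19.9 to 634 FPKM (log2 ratio 4.99). KRT7 fell from 639.5 to 0.550 FPKM, whereas the siRNA groups had 1740 and 1708 FPKM. AGR2, a secretory disulphide isomerase, fell from 22.96 to 0.0439 FPKM and MUC1 from 60.2 to 1.204 FPKM. CDH1, the gene of E-cadherin, fell from 149 to 20.7 FPKM. The general epithelial genes KRT8, KRT18 and EPCAM, named here after their values were seen, stayed high: KRT8 fell from 898 to 807 FPKM, KRT18 fell from 459 to 306 FPKM and EPCAM rose from 112 to 161 FPKM. So KRT8, KRT18, KRT19 and EPCAM were high in the knockdown group, while KRT7 and the basal keratins named here were under 1 FPKM.

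Markers of other cell types were low in both groups with few exceptions. Of 14 fibroblast markers 3 were tested. FAP fell from 5.33 FPKM and was listed at 0 in the knockdown group, VIM fell from 5.46 to 0.672 FPKM, and S100A4, which many tumour cells also express, rose from 15.4 to 646 FPKM. The summed level of the list was 31.8 FPKM in the control and 652 FPKM in the knockdown group, almost all from S100A4, while 10 and 12 of the 14 genes were under 1 FPKM. THY1 and POSTN were listed at 0 in both groups. The 10 endothelial markers summed to 27.7 and 3.39 FPKM, and PECAM1 and CDH5 fell from 11.6 and 9.59 FPKM to 0.0180 FPKM and a listed 0. The 14 leukocyte markers summed to 8.01 and 5.12 FPKM. Hepatocyte markers summed to 5.89 and 3.90 FPKM, kidney markers to 12.7 and 9.27 FPKM, melanocyte markers to 7.74 and 3.50 FPKM and lung epithelial markers to 4.52 and 2.82 FPKM.

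Intestinal markers summed to 0.526 FPKM in the control and 13.5 FPKM in the knockdown group, with 12 and 10 of 12 genes under 1 FPKM. CDX2 was the only one tested. Neural and neuroendocrine markers summed to 36.0 and 214 FPKM, and 13 of 17 were under 1 FPKM in each group. TUBB3, a tubulin of neurons that carcinoma lines also make, rose from 30.1 to 141 FPKM (log2 ratio 2.23, SE 0.21) and ENO2, neuron-specific enolase, from 2.99 to 37.5 FPKM. Cancer-testis genes, which are silent in most adult tissues and switched on in individual tumours, moved both ways: 4 of 20 were tested, 2 rose and 2 fell. MAGEB2 rose from 0.0276 to 190 FPKM, MAGEA6 fell from 254 to 12.5 FPKM and PRAME rose from 23.9 to 31.7 FPKM. MAGEA3 fell from 194 to 126 FPKM. MAGEA3 and MAGEA6 are near-identical copies, so how reads were split between them is uncertain. The part of these marker differences in the results below was not tested.

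**Figure D3:**
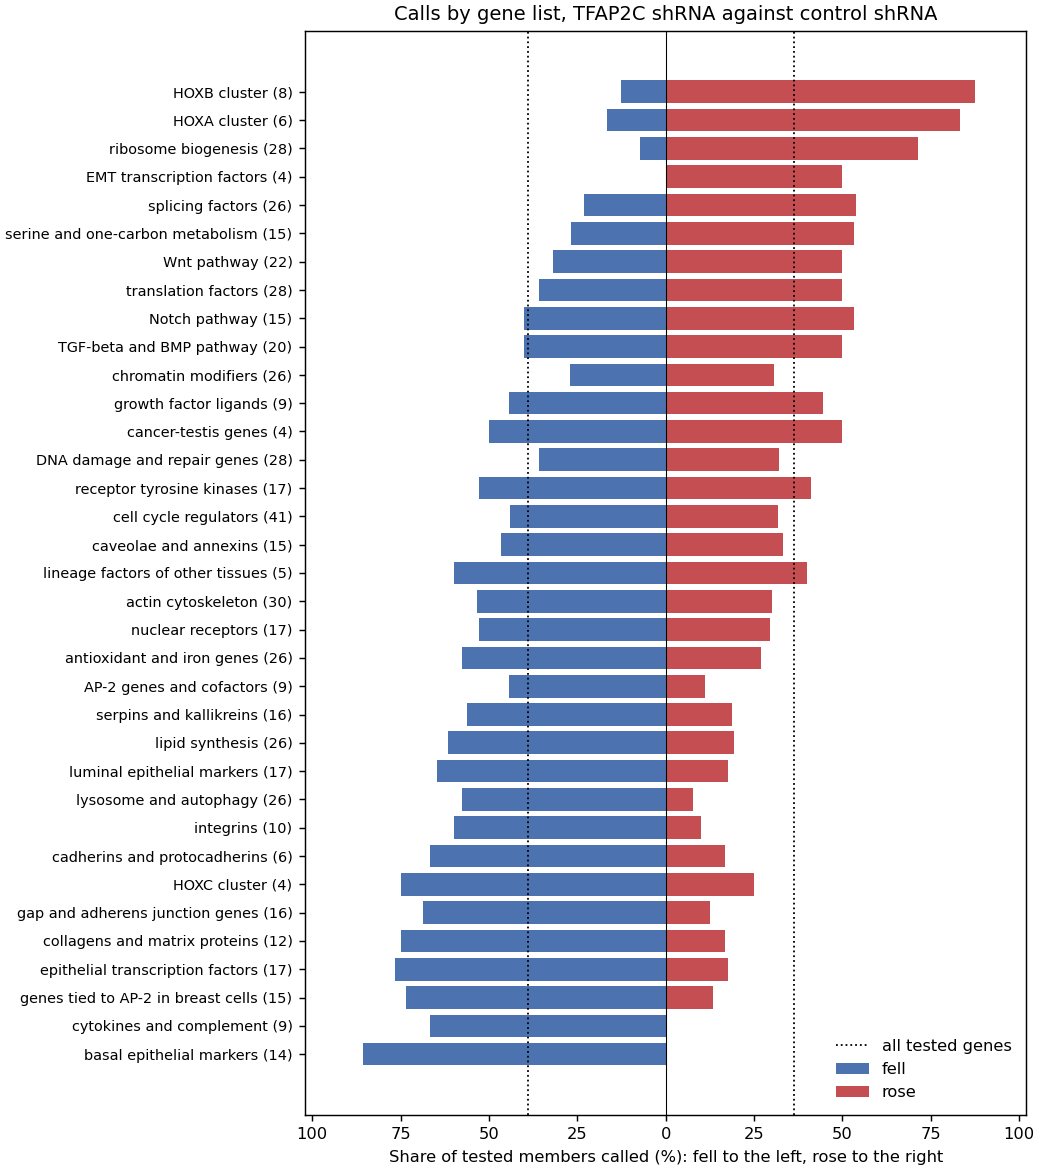
Share of the tested members of each gene list that fell (left) and rose (right) with the TFAP2C shRNA, with the number of tested members in parentheses, for lists with at least 4 tested members; the dotted lines mark the shares among all tested genes, 39% and 36.2%. HOXB and HOXA genes and ribosome biogenesis lie at the top, with 7 of 8, 5 of 6 and 20 of 28 tested genes higher, and basal epithelial markers at the bottom, with 12 of 14 lower.

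Genes that were near 0 in the control and high in the knockdown group included several that other tissues or other tumours express. GSTP1, a glutathione transferase that many breast carcinomas silence, was listed at 0 in the control and rose to 264 FPKM. It was at 0.0456 FPKM in the HCC1954 siRNA control and at 21.2 FPKM in that of SKBR3. MT1E, a metallothionein, was listed at 0 and rose to 329.6 FPKM, and both HCC1954 siRNA groups also listed it at 0. CST3, which encodes the secreted protease inhibitor cystatin C, rose from a listed 0 to 90.7 FPKM. FABP5, a fatty acid binding protein, rose from a listed 0 to 69.9 FPKM, and SIVA1, a pro-apoptotic adaptor, from a listed 0 to 106 FPKM. MT1E and FABP5 have close copies in the genome, which makes the levels of single members uncertain.

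HBE1, embryonic epsilon globin, was listed at 0 in the control and rose to 147 FPKM. OR51B5, an olfactory receptor gene beside the globin cluster on chromosome 11, was listed at 0 and rose to 73.3 FPKM. The locus of HBE1 is hg19 chr11:5289580-5291373 and that of OR51B5 is hg19 chr11:5362113-5526882. HBE1 and OR51B5 were listed at 0 in both HCC1954 siRNA groups, and CST3 was at 0.326 and 0.230 FPKM there. MIR492 rose from a listed 0 to 554 FPKM, but it is a short feature for which FPKM is uncertain. CYBA, a subunit of NADPH oxidase, rose from 0.0703 to 73.4 FPKM.

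Genes near 0 in the knockdown group included calcium-binding and antimicrobial proteins of inflamed epithelium. S100A9, a subunit of calprotectin, fell from 11153 to 0.416 FPKM, and S100A7, psoriasin, from 1138 FPKM to a listed 0. Both also fell with siRNA, from 5716 to 3711 FPKM and from 52.2 to 9.33 FPKM. CCL2, a monocyte chemokine, fell from 246 FPKM to a listed 0, and with siRNA it fell from 11.2 to 3.83 FPKM. SAA1, an acute-phase protein, fell from 173 FPKM and PIGR, the receptor that carries immunoglobulin A across epithelia, from 197 FPKM, both to a listed 0. CASP14 and PDZK1IP1 fell from 144 and 134 FPKM to a listed 0. UGT1A6, a glucuronosyltransferase, fell from 130 FPKM to a listed 0, and it shares exons with the other UGT1A genes. CLDN1, a tight junction claudin, fell from 141 to 0.0131 FPKM.

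Not every large ratio was called. Of the 689 genes that differed at least 16-fold 118 were not called, which include several with high levels. S100A8, the partner of S100A9, was at 4295 and 0.151 FPKM, with q = 0.3 in the authors' deposited table. SLPI, a protease inhibitor of mucosal secretions, was at 362 and 0.791 FPKM, with q = 0.084 in the authors' deposited table. LDHB, the B subunit of lactate dehydrogenase, was at 0.0721 and 460 FPKM, with q = 0.069 in the authors' deposited table. LDHB was listed at 0 in both HCC1954 siRNA groups and was at 162 FPKM in SKBR3. These 3 genes were chosen after their values were seen, and they show that a missing call is not a sign of equal levels.

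Among genes with at least 1 FPKM in both groups, KRT15, a keratin of progenitor and basal epithelial cells, fell from 1099 to 8.46 FPKM (log2 ratio −7.02, SE 0.28). ICAM1, an adhesion molecule induced by inflammatory signals, fell from 58.4 to 1.199 FPKM. BST2 and IFITM1, interferon-induced membrane proteins, fell from 89.1 and 116 FPKM to 1.85 and 2.21 FPKM. Among those that rose, ARHGAP18, a GTPase-activating protein for RhoA, went from 3.78 to 124 FPKM (log2 ratio 5.04, SE 0.30). CPOX, an enzyme of haem synthesis, rose from 18.7 to 281 FPKM (log2 ratio 3.91, SE 0.17). PROCR, the protein C receptor, rose from 1.01 to 38.5 FPKM, NBL1, a secreted BMP antagonist, from 1.43 to 51.1 FPKM, and STMN3, a microtubule-destabilising stathmin, from 1.83 to 66.3 FPKM. EXT1, an enzyme that builds heparan sulphate chains, fell from 200 to 9.87 FPKM, and B4GALT1, a galactosyltransferase, from 327.5 to 17.6 FPKM.

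Genes tied to AP-2 factors in breast cells by earlier work were mostly lower: of 24 listed 15 were tested, 2 rose and 11 fell, with a median log2 ratio of −0.88. ERBB2 fell from 1525 to 20.8 FPKM (log2 ratio −6.20, SE 0.29), while the HCC1954 siRNA groups had 4676 and 4016 FPKM. CDH5 fell from 9.59 FPKM to a listed 0. Of those 15 tested genes 3 rose and 1 fell with siRNA. Beside the 36.2% of all tested genes that rose and the 39% that fell with shRNA, 8 of the 24 are also luminal markers, so the counts of these lists are not independent. ESR1, the oestrogen receptor, had no completed test and was at 6.29 and 0.0145 FPKM over all its entries.

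Of 26 cytokine and complement genes 9 were tested, 0 rose, 6 fell and 3 were not called. The median log2 ratio of −8.12 is that of a gene without a call, and it counts the listed 0 of CFB. Among the called genes the log2 ratio was −10.1 for C3, and from −3.87 to −0.55 for CSF1, C1R, LIF and IL18. C3, the central complement protein, fell from 16.9 to 0.0150 FPKM, CFB, complement factor B, from 18.4 FPKM to a listed 0, and C1R, a protease of the first complement component, from 16.6 to 3.46 FPKM. CSF1, a macrophage growth factor, fell from 26.7 to 1.83 FPKM, LIF, an interleukin-6 family cytokine, from 36.3 to 12.2 FPKM, and IL18 from 41.9 to 28.6 FPKM. Of the 26 genes 13 were under 1 FPKM in the control and 21 in the knockdown group. Serpins and kallikreins showed 3 rises and 9 falls among 16 tested. SERPINA3, an acute-phase antiprotease, fell from 249.96 to 0.113 FPKM, SERPINB3 and SERPINB4 from 92.4 and 119 FPKM to a listed 0, and KLK5 and KLK6, secreted proteases of the kallikrein family, from 327 and 273 FPKM to 0.667 and 15.4 FPKM. PI3, the elastase inhibitor elafin, fell from 303 to 0.10002 FPKM. SERPINB3 and SERPINB4 are near-identical, so the split between them is uncertain.

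Secreted growth factors moved both ways, with 4 rises and 4 falls among 9 tested of 25, beside 36.2% and 39% among all tested genes. MDK, the heparin-binding factor midkine, rose from 1.07 to 289 FPKM (log2 ratio 8.08, SE 3.09). FGF19, an endocrine fibroblast growth factor, rose from 0.0810 to 15.8 FPKM and PDGFA from 2.79 to 8.12 FPKM. VEGFA, the main angiogenic factor, fell from 86.2 to 17.2 FPKM, VEGFC from 5.97 FPKM to a listed 0, and PDGFC from 30.2 to 5.98 FPKM. EREG, an EGF receptor ligand, rose from 1.70 to 152 FPKM.

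Receptor tyrosine kinases showed 7 rises and 9 falls among 17 tested of 33, beside 36.2% and 39% among all tested genes. ROR2, a Wnt5a receptor, was listed at 0 and rose to 11.3 FPKM. AXL rose from 2.56 to 12.2 FPKM and its relative TYRO3 from 1.49 to 6.63 FPKM, and FGFR3 rose from 1.26 to 5.27 FPKM. EPHB3, an ephrin receptor, fell from 6.42 to 2.94 FPKM. ERBB2 had by far the highest level of the list in the control.

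In the Wnt pathway secreted ligands bind Frizzled and LRP receptors, and beta-catenin then acts with TCF factors. Of its 39 listed genes 22 were tested, 11 rose and 7 fell, beside 36.2% and 39% among all tested genes. Among ligands, WNT7B fell from 50.1 to 4.73 FPKM and WNT4 from 6.12 to 0.210 FPKM, while WNT10B rose from 1.00 to 6.65 FPKM. Among nuclear factors and targets, TCF7L2 rose from 3.37 to 46.8 FPKM and TCF7 from 1.83 to 9.74 FPKM. AXIN2, a feedback inhibitor and known target of the pathway, rose from 2.04 to 30.4 FPKM (log2 ratio 3.90, SE 0.66). It was at 1.59 and 1.31 FPKM in the HCC1954 siRNA groups. Of the 22 genes tested with shRNA 0 were called with siRNA in either direction, and the other listed genes were not looked up there.

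In the Notch pathway a ligand on one cell triggers cleavage of a receptor on the next. Of its 22 listed genes 15 were tested, 8 rose and 6 fell, beside 36.2% and 39% among all tested genes. The receptors NOTCH2 and NOTCH3 fell from 28.9 and 13.3 FPKM to 15.02 and 6.83 FPKM. The target HEYL was listed at 0 and rose to 9.66 FPKM, the feedback inhibitor NRARP rose from 3.44 to 18.0 FPKM and LFNG, a glycosyltransferase that modifies Notch, from 4.13 to 10.9 FPKM. The co-activator MAML2 fell from 19.998 to 2.88 FPKM.

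In the TGF-beta and BMP pathways 20 of 28 genes were tested, 10 rose and 8 fell, with a median log2 ratio of −0.05. Over all tested genes 36.2% rose and 39% fell, with a median of −0.04. Among ligands, BMP4 rose from 1.88 to 168 FPKM (log2 ratio 6.48, SE 1.70) and TGFB1 from 2.67 to 14.2 FPKM, while TGFB2 fell from 74.3 to 0.229 FPKM and INHBB, an activin subunit, from 96.9 to 0.739 FPKM. The BMP target ID2 rose from 2.50 to 54.4 FPKM. LTBP2, a latent TGF-beta binding family member, fell from 5.598 to 0.301 FPKM. BMP4 was at 1.64 and 1.68 FPKM in the siRNA groups. TGFBI, a matrix protein induced by TGF-beta, fell from 177 to 0.0620 FPKM with shRNA and rose from 61.2 to 91.5 FPKM with siRNA.

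Collagens and matrix proteins showed 2 rises and 9 falls among 12 tested of 35, with a median log2 ratio of −2.48. FN1, fibronectin, fell from 218 to 1.99 FPKM (log2 ratio −6.78, SE 2.82), AGRN, agrin, from 73.1 to 9.46 FPKM, and LAMB3, a laminin chain of the epithelial basement membrane, from 60.6 to 7.12 FPKM. COL12A1 and COL18A1 fell from 30.9 and 14.6 FPKM to 4.18 and 2.06 FPKM, and COL6A2 rose from 1.81 to 16.3 FPKM. Of 16 integrins 10 were tested, 1 rose and 6 fell, beside 36.2% and 39% among all tested genes. ITGAV, which pairs with several beta chains, fell from 43.7 to 14.7 FPKM, ITGA3 from 70.7 to 29.0 FPKM and ITGB8 from 8.29 to 1.69 FPKM, while ITGA5, the fibronectin receptor chain, rose from 6.48 to 11.7 FPKM. ITGB4 and ITGB5 fell from 22.3 and 31.9 FPKM to 13.7 and 16.5 FPKM.

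Gap and adherens junction genes showed 2 rises and 11 falls among 16 tested of 22. CEACAM6, a cell adhesion molecule of the carcinoembryonic antigen family, fell from 164 FPKM to a listed 0. CTNND1, which encodes p120 catenin, fell from 171 to 70.4 FPKM, AFDN, afadin, from 28.9 to 8.98 FPKM, and NECTIN4 from 7.89 to 0.480 FPKM. Of 25 cadherins and protocadherins 6 were tested, 1 rose and 4 fell. PCDH1 fell from 24.8 to 12.3 FPKM and PCDH7 rose from 10.3 to 34.6 FPKM. Both tested mucins fell, MUC20 from 49.6 to 0.562 FPKM.

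Of 33 actin cytoskeleton genes 30 were tested, 9 rose and 16 fell, beside 36.2% and 39% among all tested genes. The tropomyosins TPM1 and TPM2 moved opposite ways, TPM1 from 203 down to 16.8 FPKM and TPM2 from 6.07 up to 95.5 FPKM. The leading entry of TPM1 had a deposited statistic of only −9.58e-04, with q = 0.0196 in the authors' deposited table. MYL9, a regulatory light chain of non-muscle and smooth muscle myosin, was listed at 0 and rose to 53.6 FPKM, and FLNC, filamin C, was listed at 0 and rose to 7.56 FPKM. FLNA, filamin A, fell from 255 to 62.1 FPKM, TAGLN2, transgelin 2, from 774 to 121 FPKM, and ACTB, beta-actin, from 3125 to 1442 FPKM. Caveolae and annexin genes showed 5 rises and 7 falls among 15 tested of 18. CAVIN3 was listed at 0 and rose to 7.63 FPKM, ANXA6 rose from 7.30e-04 to 13.2 FPKM, and ANXA8, ANXA3 and ANXA1 fell from 16.8, 37.3 and 173 FPKM to a listed 0, 15.5 and 79.5 FPKM. S100A10, the partner of annexin A2, fell from 642 to 91.3 FPKM.

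Ribosome biogenesis genes were mostly higher: all 28 were tested, 20 rose and 2 fell, with a median log2 ratio of 0.65. NPM1, nucleophosmin, rose from 297 to 773 FPKM, FBL, the methyltransferase fibrillarin, from 73.9 to 161 FPKM, NOP58 from 22.0 to 50.7 FPKM and GAR1, a protein of pseudouridylation complexes, from 12.7 to 34.6 FPKM. RRP9 rose from 6.80 to 15.1 FPKM and WDR12 from 7.76 to 21.2 FPKM. With siRNA 1 of these genes rose and 0 fell. Translation factors divided: 14 rose and 10 fell of 28, beside 36.2% and 39% among all tested genes. EIF4B rose from 60.7 to 264 FPKM, EEF1A1 from 672 to 1783 FPKM and EEF1B2 from 65.9 to 190 FPKM. EIF3H fell from 718 to 263 FPKM, EIF2S3 from 263 to 97.0 FPKM and EIF1AX from 141 to 54.1 FPKM. EEF1A1 and NPM1 have many processed copies in the genome, so their levels are uncertain.

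Splicing factors showed 14 rises and 6 falls among 26 tested of 27, with a median log2 ratio of 0.33. SRSF2 and SRSF6, serine- and arginine-rich factors, rose from 153 and 78.4 FPKM to 307 and 159 FPKM, SF3B1, a component of the U2 particle, from 52.3 to 122 FPKM and HNRNPM from 118 to 253 FPKM, while QKI fell from 8.84 to 3.34 FPKM. Chromatin modifiers were near even, with 8 rises and 7 falls among 26 tested of 31, beside 36.2% and 39% among all tested genes. HDAC1 and KDM1A, enzymes that remove acetyl and methyl groups from histones, rose from 31.0 and 31.6 FPKM to 109 and 73.9 FPKM. HDAC9 fell from 33.9 to 0.621 FPKM, SMARCA2, an ATPase of SWI/SNF remodellers, from 57.8 to 6.07 FPKM and KDM6A, an X-linked demethylase, from 5.99 to 1.43 FPKM. CBX7 rose from 1.95 to 5.13 FPKM.

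Lysosome and autophagy genes showed 2 rises, 15 falls and 9 uncalled genes among 26 tested of 29, with a median log2 ratio of −0.68, beside 36.2% rising and 39% falling among all tested genes. The cathepsins CTSD, CTSZ, CTSH, CTSL and CTSV fell from 461, 303, 36.9, 50.7 and 7.73 FPKM to 62.8, 69.2, 12.1, 18.2 and 2.81 FPKM, and LAMP2, a lysosomal membrane protein, from 91.8 to 27.8 FPKM. Lipid synthesis showed 5 rises and 16 falls among 26 tested of 29, with a median log2 ratio of −0.72. HMGCS1 and LSS, enzymes of cholesterol synthesis, fell from 38.7 and 15.03 FPKM to 8.09 and 4.83 FPKM. INSIG1, a sterol sensor partner, fell from 18.8 to 5.81 FPKM, ACSL1, an acyl-CoA synthetase, from 48.7 to 5.41 FPKM and STARD4 from 5.25 to 1.21 FPKM.

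Antioxidant and iron genes showed 7 rises and 15 falls among 26 tested of 29, beside 36.2% and 39% among all tested genes. SOD2, the mitochondrial superoxide dismutase, fell from 387 to 51.4 FPKM, TFRC, the transferrin receptor, from 321 to 89.8 FPKM and FTH1, the ferritin heavy chain, from 2016 to 461 FPKM. GCLM, a subunit of the enzyme that starts glutathione synthesis, fell from 43.0 to 10.4 FPKM. GSTP1 was the list's largest rise. Serine and one-carbon genes showed 8 rises and 4 falls among 15 tested of 20. SHMT2 rose from 45.1 to 109.5 FPKM, MTHFD1L from 5.63 to 15.3 FPKM, AHCY from 85.8 to 191 FPKM, MAT2A from 62.5 to 113 FPKM and the glutamine carrier SLC1A5 from 74.97 to 103 FPKM.

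Cell cycle regulators showed 13 rises and 18 falls among 41 tested of 42, with a median log2 ratio of −0.25. These counts were near the shares over all tested genes, of which 36.2% rose and 39% fell. The kinase inhibitors CDKN2B, CDKN2C and CDKN2D fell from 12.6, 39.9 and 44.01 FPKM to 2.10, 8.03 and 11.4 FPKM. The cyclins CCNE2 and CCND3 fell from 76.3 and 77.1 FPKM to 19.5 and 21.9 FPKM, and AURKA, a mitotic kinase on chromosome 20 near TFAP2C, from 193 to 45.1 FPKM. DNA damage and repair genes were near even, with 9 rises and 10 falls among 28 tested of 32, again near those shares. BRCA1, a factor of homologous repair, fell from 25.03 to 12.6 FPKM, ATR from 6.84 to 3.53 FPKM and FANCA from 18.6 to 10.7 FPKM. MGMT, which removes alkyl groups from guanine, rose from 3.25 to 12.3 FPKM and DDB2 from 7.26 to 20.5 FPKM. APOBEC3B, a cytidine deaminase that is deleted in some people, fell from 61.1 to 14.9 FPKM. It was the only 1 tested of 8 listed genes with common whole-gene deletions, of which 6 were under 1 FPKM in each group. Without a completed test, GSTT1 was at 13.4 FPKM in the control and a listed 0 in the knockdown group. GSTT2B was likewise at a listed 0 and 7.29 FPKM.

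Nuclear receptors showed 5 rises and 9 falls among 17 tested of 33, beside 36.2% and 39% among all tested genes. NR2F1, the orphan receptor COUP-TFI, rose from 0.699 to 37.4 FPKM (log2 ratio 5.74, SE 0.74). The circadian repressors NR1D1 and NR1D2 rose from 2.15 and 11.0 FPKM to 22.2 and 46.5 FPKM. THRA, a thyroid hormone receptor whose gene overlaps NR1D1 on the opposite strand, rose from 1.72 to 6.09 FPKM, and without stated strand-specific counting the pair cannot be told apart. NR1H3 rose from 1.54 to 5.03 FPKM and RARA, a retinoic acid receptor, fell from 22.8 to 7.44 FPKM.

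The ratio differed along chromosomes. The median log2 ratio was taken in windows of 41 neighbouring tested genes, 8762 windows over 9682 genes. With shRNA it ran from −1.99 to 1.16 and lay beyond ±0.5 in 32.6% of windows. With siRNA in HCC1954 it ran from −0.16 to 0.27 and lay beyond ±0.5 in 0% of windows. The siRNA ratios of single genes also spread less, with quartiles of −0.16 and 0.15, so the same bound is harder to pass there. The lowest stretch, on chromosome 9 from WASHC1 to CAAP1, had 5 rises and 34 falls among its 41 genes, and PSIP1, ERMP1 and RANBP6 were its strongest members. The next lowest lay on the X chromosome from ARSD to RPS6KA3, with a median of −1.58 and 4 rises and 33 falls, and on chromosome 20 from B4GALT5 to PPP1R3D, with −1.51 and 5 rises and 30 falls. The highest, on chromosome 10 from COX15 to ARL3, had 35 rises and 0 falls and a median of 1.16. Another on chromosome 16 from METTL26 to RAB26 had a median of 1.10, 31 rises and 1 fall. In each of these stretches most genes moved the same way. The stretches were picked as the most extreme, so their counts are descriptions. Among all tested genes 36.2% rose and 39% fell.

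TFAP2C itself lies in a low stretch. The 41 genes around it, SNAI1 to SS18L1 on chromosome 20, had a median log2 ratio of −1.39 with 4 rises and 29 falls, and a median of 0.03 with siRNA. The 41 genes around ERBB2, DDX52 to KRTAP3-1 on chromosome 17, had a median of −0.18 with 15 rises and 22 falls. There the fall was concentrated in a few neighbours. MIEN1, GRB7, PGAP3, STARD3 and ORMDL3, which surround ERBB2, fell from 991, 450.3, 369, 499 and 1590 FPKM to 26.2, 7.08, 5.49, 10.1 and 33.1 FPKM. Whether DNA copy number moves with these stretches was not tested, since RNA alone was measured.

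**Figure D4:**
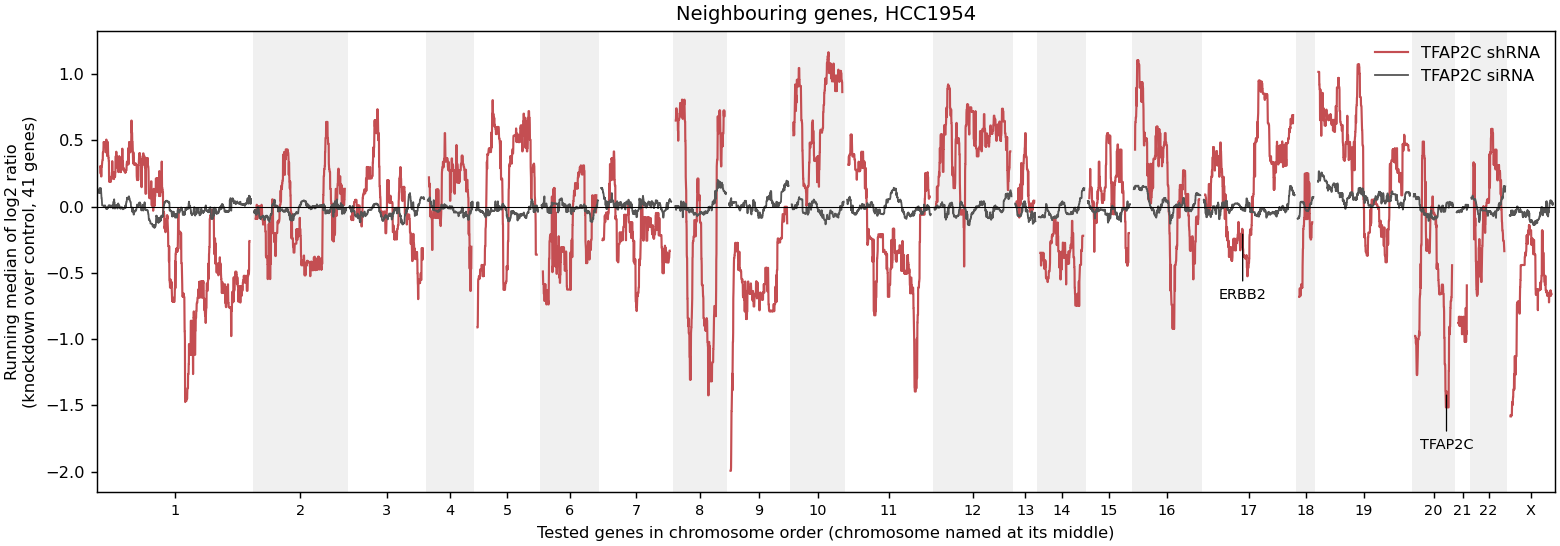
Running median of the log2 ratio of knockdown over control over 41 neighbouring tested genes, in chromosome order, for TFAP2C shRNA (red) and TFAP2C siRNA (grey) in HCC1954. The shRNA line moves between −1.99 and 1.16 in stretches that span many genes, and the siRNA line stays between −0.16 and 0.27.

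The genes called with siRNA in HCC1954 were looked up in the shRNA comparison. The 4 groups share no samples. Of the 105 genes that fell with siRNA 86 were tested with shRNA, and 68 of these fell (79.1%) and 8 rose (9.30%), beside 39% and 36.2% among all tested genes. Of the 251 that rose with siRNA 211 were tested, and 87 of these rose (41.2%) and 107 fell (50.7%). As shares of the shRNA calls, the genes that moved the same way were 1.79% of the genes that fell and 2.47% of those that rose. Among the 8 genes that fell with siRNA and rose with shRNA was KRT19, at 7.51 and 4.01 FPKM with siRNA and at 19.9 and 634 FPKM with shRNA. Among the genes that rose with siRNA and fell with shRNA were KRT17, at 357 and 649 FPKM with siRNA, and TGFBI.

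**Figure D5:**
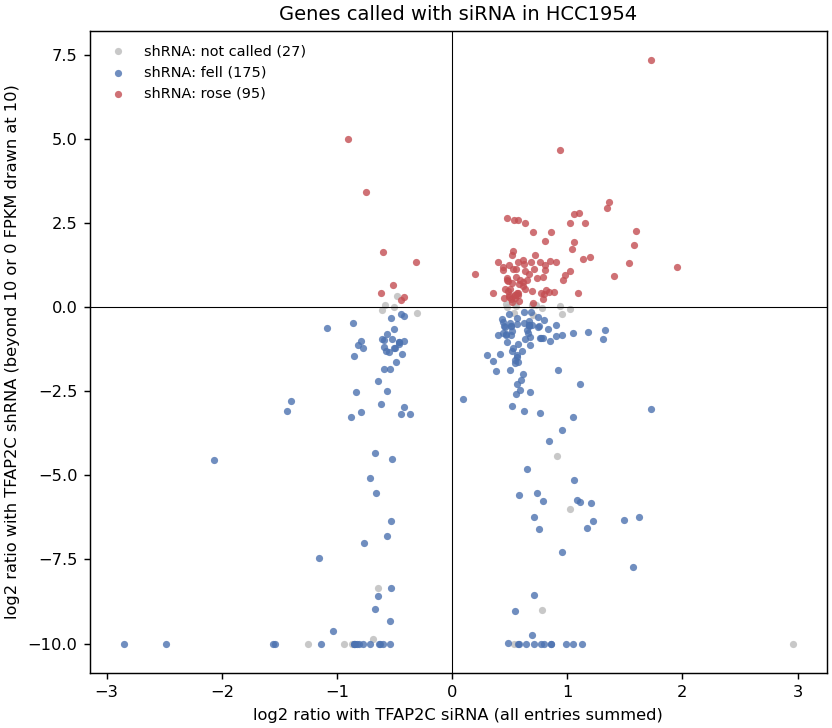
log2 ratio with TFAP2C siRNA (x) and with TFAP2C shRNA (y) for the 297 genes called with siRNA in HCC1954 and tested with shRNA, coloured by their call with shRNA, with ratios beyond ±10 or from a listed 0 drawn at 10 units. Most genes to the left lie below 0 on the y axis (68 of 86 fell), and those to the right lie on both sides (87 rose and 107 fell).

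The difference of the 2 log2 ratios was tested for 8821 genes by z, with each standard error taken from the deposited statistic of the leading entry. The ratios of 1186 genes (13.4%) differed at a Benjamini-Hochberg adjusted p under 0.05 over all genes compared, 391 with the shRNA ratio above and 795 with it below. For CDKN1A, the gene of the cell cycle inhibitor p21, the leading entry rose in both comparisons, from 35.7 to 83.6 FPKM with shRNA and from 8.59 to 38.8 FPKM with siRNA. The difference of log2 ratios was −0.95 (SE 0.91, z = −1.04) and was not called. A test that misses the threshold does not show that the responses are alike.

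Some genes had a different leading transcript in each group. Of 2520 genes with at least 2 tested entries that could be given shares, 137 (5.44%) had entries called in opposite directions. PCDH7, a protocadherin, went from 96.8% of its FPKM in NM_002589 to 99.97% in NM_001173523. TPM4, a tropomyosin, was almost all in NM_001145160 in the control, and NM_003290 rose from 0.149% to 44.6% of its FPKM. LIMK2, a kinase of the actin regulator cofilin, went from 77.9% to 2.27% in NM_016733. SHC1, an adaptor of receptor tyrosine kinases, went from 91.9% to 13.8% in NM_001130041 and from 7.65% to 66.4% in NM_183001, while its summed level was 33.02 and 36.7 FPKM and was not called. PARP2 and SYNRG also moved between entries, PARP2 from 6.34% to 74.99% in NM_001042618 and SYNRG from 21.6% to 82.2% in NM_080550. Entries of a gene overlap, so their split depends on how the authors' tool assigned shared reads.

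Promoters were searched for the AP-2 recognition sequence, because the shRNA targets an AP-2 factor. The 250 bases upstream of each gene's start were taken from RefSeq (GRCh38.p14), and 7805 of the 9734 tested genes matched by symbol. The motifs, GCCNNNGGC and the same with 1 more N in the middle, read the same on both strands, and matches may overlap. Printed first are SOD2 and TGFBI, which fell and had 4 matches each, then LHX2 and HYCC1, which rose and had 5 and 3 matches, and GSTP1, which rose from a listed 0 and had 1. GSTP1 was added after its values were seen. HYCC1 rose in sum only from 5.76 to 11.4 FPKM, and its entries moved opposite ways, NM_001363466 from 5.27 to 2.25 FPKM and NM_032581 from 0.483 to 9.11 FPKM. Capitals mark the motif, and sequences run 5′ to 3′ on the gene's strand.

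SOD2 (chr6:159727385-159727634, - strand): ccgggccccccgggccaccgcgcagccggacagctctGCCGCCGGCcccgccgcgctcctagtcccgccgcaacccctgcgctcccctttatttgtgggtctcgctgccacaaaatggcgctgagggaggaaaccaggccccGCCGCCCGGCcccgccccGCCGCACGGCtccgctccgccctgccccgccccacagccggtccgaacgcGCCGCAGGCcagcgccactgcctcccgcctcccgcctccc

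TGFBI (chr5:136028738-136028987, + strand): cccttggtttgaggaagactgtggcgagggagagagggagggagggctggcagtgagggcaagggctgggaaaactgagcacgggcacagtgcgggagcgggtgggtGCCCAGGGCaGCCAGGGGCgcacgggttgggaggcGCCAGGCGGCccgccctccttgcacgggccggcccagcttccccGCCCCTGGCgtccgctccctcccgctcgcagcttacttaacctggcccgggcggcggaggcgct

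LHX2 (chr9:124011518-124011767, + strand): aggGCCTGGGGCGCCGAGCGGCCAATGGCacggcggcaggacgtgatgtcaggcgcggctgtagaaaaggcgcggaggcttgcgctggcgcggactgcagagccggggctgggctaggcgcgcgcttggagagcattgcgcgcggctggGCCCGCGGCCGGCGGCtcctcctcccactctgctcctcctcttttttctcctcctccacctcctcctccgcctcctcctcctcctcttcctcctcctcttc

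HYCC1 (chr7:23014131-23014380, - strand): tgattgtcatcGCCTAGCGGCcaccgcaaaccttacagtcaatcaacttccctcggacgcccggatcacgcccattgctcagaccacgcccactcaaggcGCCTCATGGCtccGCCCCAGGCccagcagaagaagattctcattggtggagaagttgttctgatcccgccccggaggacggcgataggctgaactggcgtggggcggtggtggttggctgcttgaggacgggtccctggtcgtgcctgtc

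GSTP1 (chr11:67583562-67583811, + strand): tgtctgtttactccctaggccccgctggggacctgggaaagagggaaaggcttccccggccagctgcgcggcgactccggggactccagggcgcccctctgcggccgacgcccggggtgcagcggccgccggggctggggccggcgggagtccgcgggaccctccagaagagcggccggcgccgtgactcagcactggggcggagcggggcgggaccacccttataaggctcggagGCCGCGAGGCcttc

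A match stood in the promoters of 47.0% of 3010 genes that fell, 45.7% of 2809 that rose and 45.2% of 1986 that were not called. It stood in 46.1% of all tested genes' promoters and in 32.0% of the 27305 promoters in the table. The median GC content was 66.0%, 65.2%, 64.8%, 65.6% and 58.0% in these sets. The share with a match was thus nearly the same in genes that fell, rose or were not called, and a match says nothing of binding.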

How the data were processed

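RNA was sequenced from HCC1954 with a control or a TFAP2C shRNA, 3 samples per group, with TruSeq libraries, per the labels' protocols. The submitters' processing notes list Bowtie 0.12.2, Cuffdiff, and hg19 and GRCh37 as builds, and the Cuffdiff version was not given in the sources used here. The authors deposited comparison tables with 1 pooled FPKM per RefSeq entry and group, scaled to transcript length and to mapped fragments. The deposited test statistic is a score whose scale is that of Cuffdiff. Each entry also has a p-value and a q-value that the authors computed. Samples have no columns of their own, so depth, replicate spread and pairing are unknown. The 3 genome-wide tables were used, and the table of HCC1569 was not used here.

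Of 66321 entries 13559 had a completed test. Gene names from a RefSeq table (GRCh38.p14, no coordinates taken) matched 65468 entries, and 114 tested entries had no match. FPKM was summed over a gene's tested entries, 2752 of 9734 genes having more than 1. In 35 genes the leading entry was called but the sum moved the other way, and these count as not called. A Benjamini-Hochberg adjustment of the deposited p over tested entries gave the deposited q, with 0 different calls. Its smallest p was 5e-05, held by 41.2% of tested entries, so genes cannot be ranked by it. A standard error is the log2 ratio of the leading entry over its deposited statistic. It is printed for some genes only. For some called genes near 0 in a group it exceeded the log2 ratio, as for AGR2 (−9.03, SE 16.2) and ANXA6 (14.1, SE 335). Without values per sample no exact test was possible, and difference tests used z with Benjamini-Hochberg adjustment. They were tested on simulated data: with 200 of 8821 genes shifted by 1, 2 or 4 log2 units, z found 3.15%, 41.8% and 71.8% of them, if that standard error is right. The simulated noise was drawn with that same standard error, so the simulation cannot check it. The median ratio of the normal quantile of the deposited p to the size of the statistic was 2.88, so the scales differ.

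The 47 gene lists, the genes described and the tests were chosen with earlier results of these data known. Genes are named by a rule: the AP-2 genes, the 15 called genes per direction with the largest change in FPKM, the 12 per direction with the largest ratio among those with 1 FPKM in both groups and 20 in the higher, the 12 per direction at or under 0.1 FPKM in one group, up to 6 called members of each list, 6 genes with changed entry shares, 5 per sign with the largest z, and the 8 most extreme stretches of neighbours at each end. A few genes picked by it are not reported here. Python 3.11.15, numpy 2.4.6, pandas 2.3.3, scipy 1.17.1 and matplotlib 3.10.9 were used.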

Additional observations from a re-analysis of the deposited data

Results flagged for a closer look

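The response to TFAP2C shRNA and to TFAP2C siRNA in HCC1954 was compared by z of the log2 ratios. Of 8821 genes 1186 (13.4%) differed at an adjusted p under 0.05 with Benjamini-Hochberg adjustment. Of the 14 genes named, TFAP2C, TFAP2A, ERBB2 and CDKN1A were not picked by z, and of these only CDKN1A was not called. The rest were picked from the called genes for their large z, so their calls are no result. A value is the log2 ratio of the leading entry with shRNA minus that with siRNA. The siRNA table names no line in its columns.

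Among the AP-2 genes and ERBB2, the difference was −2.48 for TFAP2C (SE 0.46, z = −5.39), −3.72 for TFAP2A (SE 1.15, z = −3.23) and −6.05 for ERBB2 (SE 0.88, z = −6.84). TFAP2C fell in both, and further with shRNA.

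The shRNA ratio was lower for IGFBP3, a binding protein of insulin-like growth factors, by −6.76 (SE 0.48), for KRT15 by −6.25 (SE 0.49), for THBS1, the matrix protein thrombospondin 1, by −4.83 (SE 0.39), for EXT1 by −4.74 (SE 0.36) and for B4GALT1 by −4.25 (SE 0.33). IGFBP3 was at 229 and 4.75 FPKM with shRNA and at 108 and 242 FPKM with siRNA.

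The shRNA ratio was higher for KRT19 by 5.90 (SE 0.60), for ARHGAP18 by 5.19 (SE 0.51), for CPOX by 4.15 (SE 0.45), for MAN1A1, a mannosidase of the Golgi, by 3.13 (SE 0.38) and for ADAM19, a membrane metalloprotease, by 3.12 (SE 0.36). ADAM19 was at 4.52 and 33.03 FPKM with shRNA and at 28.8 and 24.2 FPKM with siRNA. The 10 genes other than the AP-2 genes, ERBB2 and CDKN1A were chosen for their large z, so their differences are descriptions. The clone, the kind of RNA interference and its duration differ together between the comparisons and cannot be told apart.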

How the results depend on the processing

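No paired analysis was possible because the deposited columns pool the 3 samples of a group and carry no replicate. Leaving out a replicate was not run for the same reason. The count of 7312 changed genes was 3381 with a change of at least 2-fold also asked for, 1544 that rose and 1837 that fell. It lay between 6439 (q under 0.01) and 7542 (Simes p over a gene's entries) under the other alternatives: 1 FPKM in either group, the leading entry alone, all entries summed, and centring on the median or the upper quartile. None of those called a gene in the opposite direction. Asking for q under 0.01 or 1 FPKM, or taking the leading entry alone, could not do so by definition. The 1 FPKM setting could change nothing, because every tested entry had at least 4.75 FPKM in one of the groups. The z-test called 4297 genes in place of 1186 when the standard error came from the deposited p. The lowest running median was −2.81 over 21 genes and −1.44 over 81, and the highest 1.47 and 1.08. Centring shifts ratios by −0.03 (median) or −0.15 (upper quartile), and the 237 named ratios kept their direction under these and with all entries summed. They also kept it with both pseudocounts and the leading entry alone, which could not reverse a called gene and so are no check. Requiring 2-fold moved 38 of 86 list counts by over 1.5 times, and Simes and upper quartile centring moved 1 each.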
